A study of Mus musculus with 16 samples.

Results

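Hub promoters were bait fragments with 80 or more distinct partner fragments over 4 lists of promoter contacts from mouse liver. The members were chosen by this number of partners, which is itself a measured value, so the number of partners is a description here and not a result. There were 265 hubs among 18165 bait fragments, a share of 1.46%. The contacts came from Promoter Capture in nucleus Hi-C, in which crosslinked chromatin is cut with the restriction enzyme HindIII, ends that lie close together are ligated, and ligation products that hold a promoter fragment, the bait, are pulled out with RNA probes and sequenced. The tissue was liver of wild-type male C57BL/6 mice, an inbred laboratory strain, labelled as 8 weeks old, fed ad libitum under a cycle of 12 h light and 12 h darkness. The methods give 8 weeks as the age at which the mice were placed in this cycle, so the age at dissection was higher. The groups were 4 zeitgeber times, ZT0 (lights on), ZT6, ZT12 (lights off) and ZT18, and no group had another treatment. Each timepoint had 3 pools of 2 livers, and the authors merged the pools before calling contacts, so each timepoint is 1 list. No value below has a replicate error, no difference between timepoints could be tested, and every interval covers counting error only. The assay does not measure RNA, so the markers of liver cell types could not be checked as expression levels.

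A promoter is the stretch of DNA from which a gene is transcribed, and contacts between a promoter and distant fragments can bring enhancers, other promoters or merely neighbouring chromatin close to it. Promoters with very many contacts are often called hubs. The lists give each contact a CHiCAGO score, which grows as the reads of a fragment pair exceed the number that distance and technical noise would give, and a pair is listed where its score reaches 5. A gene was placed on a hub when its annotated start (build mm9) lay on the bait fragment.

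The sequences before the starts of 6 genes on hubs are given first, because these genes return below as the examples of stable, variable, one-sided and very distant contacts. They are the gene for the clock repressor Bhlhe40 with 149 partners, Dhrs3 (a retinal reductase) with 124, Gadd45g (a stress-induced growth arrest gene) with 115, Foxo1 (a transcription factor of the insulin response) with 129, Ghr (the growth hormone receptor) with 141 and Hist1h2ai (a core histone gene) with 202. Each run is the 250 bases before the gene start in mm9, read 5′ to 3′ on the strand of the gene. Capitals mark the E-box CACGTG, the TATA box TATAAA, the CCAAT box and the GC box GGGCGG, on either strand.
Bhlhe40, chr6:108610373-108610622, plus strand: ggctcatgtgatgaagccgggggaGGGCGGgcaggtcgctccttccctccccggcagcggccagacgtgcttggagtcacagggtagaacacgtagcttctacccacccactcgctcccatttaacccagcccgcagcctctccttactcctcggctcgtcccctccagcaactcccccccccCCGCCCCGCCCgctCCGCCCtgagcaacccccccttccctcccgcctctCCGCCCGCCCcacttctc
Dhrs3, chr4:144482480-144482729, plus strand: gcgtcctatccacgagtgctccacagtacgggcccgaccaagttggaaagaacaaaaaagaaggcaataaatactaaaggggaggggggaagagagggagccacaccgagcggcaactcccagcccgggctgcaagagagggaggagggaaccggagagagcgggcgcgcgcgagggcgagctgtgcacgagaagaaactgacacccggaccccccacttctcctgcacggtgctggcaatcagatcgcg
Gadd45g, chr13:51941797-51942046, plus strand: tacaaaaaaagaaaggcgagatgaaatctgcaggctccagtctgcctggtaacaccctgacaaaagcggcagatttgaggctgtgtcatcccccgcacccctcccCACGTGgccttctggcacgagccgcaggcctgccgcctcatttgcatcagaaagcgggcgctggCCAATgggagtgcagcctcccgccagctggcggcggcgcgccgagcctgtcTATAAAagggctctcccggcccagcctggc
Foxo1, chr3:52072009-52072258, plus strand: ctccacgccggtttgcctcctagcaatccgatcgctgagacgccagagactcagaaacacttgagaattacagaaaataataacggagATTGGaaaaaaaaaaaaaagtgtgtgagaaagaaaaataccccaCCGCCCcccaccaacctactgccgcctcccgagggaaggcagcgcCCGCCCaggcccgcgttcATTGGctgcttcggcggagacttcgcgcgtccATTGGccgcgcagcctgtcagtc
Ghr, chr15:3533493-3533742, minus strand: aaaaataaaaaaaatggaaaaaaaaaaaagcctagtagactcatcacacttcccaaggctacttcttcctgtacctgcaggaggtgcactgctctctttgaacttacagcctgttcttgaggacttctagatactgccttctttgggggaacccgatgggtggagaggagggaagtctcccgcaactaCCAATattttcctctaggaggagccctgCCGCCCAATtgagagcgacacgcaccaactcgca
Hist1h2ai, chr13:21808031-21808280, plus strand: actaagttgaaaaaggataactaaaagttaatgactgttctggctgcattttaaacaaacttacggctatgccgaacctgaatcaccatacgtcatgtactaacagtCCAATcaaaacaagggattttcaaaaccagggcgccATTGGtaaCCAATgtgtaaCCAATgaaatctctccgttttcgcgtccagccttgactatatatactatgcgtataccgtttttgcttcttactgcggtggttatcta

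These promoters differed in composition. The share of G and C was 69.6% before Bhlhe40, 61.6% before Dhrs3, 62.8% before Gadd45g, 56% before Foxo1, 48.0% before Ghr and 39.6% before Hist1h2ai. Bhlhe40 held 6 GC boxes, some of them overlapping, and no other of the searched motifs. Gadd45g held a TATA box that begins 30 bases before its start, with a CCAAT box at 81 and an E-box at 145 bases before it. Hist1h2ai held 4 CCAAT boxes, and its start lies close to that of Hist1h2bl, which is read in the opposite direction from the same fragment. Dhrs3 held no match in this window. Over all protein-coding genes that start on hubs, and over the 250 bases before and 50 after the start, the E-box was found at 24 of 259 promoters (9.27%, 95% Wilson interval 6.31 to 13.4%), the TATA box at 31 (12.0%, 8.56 to 16.5%), the CCAAT box at 99 (38.2%, 32.5 to 44.3%) and the GC box at 140 (54.1%, 48.0 to 60.02%). The same search over the 16859 promoters on all baits gave 8.54%, 11.3%, 37.1% and 49.4%, each within the interval of the hubs. A match is a description of these letters and not a bound site.

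On hubs 12 miRNA genes start, and 4 of them had mature sequences in the RefSeq table (build GRCm38). These 4 lie on a pair of hubs, 1 shared by Mir212 and Mir132 with the gene Hic1 (151 partners) and 1 shared by Mir23b and Mir27b (145 partners). The microRNA list leaves out annotated miRNA genes on other hubs, such as AL844481.1. No share was computed over all annotated miRNA genes. Among 276 bait fragments with a gene of this list, the Hic1 hub and the Mir23b and Mir27b hub were the only hubs (0.725%, 0.199 to 2.60%). That interval holds the 1.46% of all baits. The mature sequences are shown with the seed, bases 2 to 8, in capitals, because both hubs carry miRNA genes side by side and a shared seed marks miRNAs that can pair with the same target sites.
mmu-miR-212-3p: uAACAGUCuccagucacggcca
mmu-miR-132-3p: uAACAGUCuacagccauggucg
mmu-miR-23b-5p: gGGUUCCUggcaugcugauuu
mmu-miR-27b-3p: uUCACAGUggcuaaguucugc

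The 3′ arms of Mir212 and Mir132 share the seed AACAGUC. For Mir23b only the 5′ arm was in the table, so its 3′ arm could not be set beside that of Mir27b. The Hic1 hub had 119 contacts (ZT0), 120 (ZT6), 108 (ZT12) and 125 (ZT18). The Mir23b and Mir27b hub had 122, 136, 140 and 135 contacts at the same timepoints, and 117 of its 145 partners were listed at all 4. The contacts of the miRNA hub thus recurred more often than those of most hubs, for which the median share listed at all 4 timepoints was 45.7% with quartiles of 37.2 and 56.6%.

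The contacts listed at each timepoint were counted for every hub. The hub with most partners was the fragment of Hist1h2bl and Hist1h2ai, a pair of genes for core histones, with 202. It had 156 contacts (ZT0), 164 (ZT6), 150 (ZT12) and 164 (ZT18), so its level moved little. Next came Gm5176, a predicted gene, with 173 partners and 155, 132, 143 and 127 contacts, and a fragment holding a U1 small nuclear RNA gene, with 168 partners but only 81, 107, 95 and 103 contacts. Of the 168 partners of the U1 hub, 37 (22.0%) were listed at all 4 timepoints, so most of them were absent from at least 1 list. Fam166b and Dmkn, the gene of the skin protein dermokine, had 165 partners each. Dmkn had 123 contacts (ZT0), 134 (ZT6), 140 (ZT12) and 153 (ZT18). The remaining hubs of the first 15 were a fragment with the miRNA gene AL844481.1 (158), 1 with the small nucleolar RNA gene SNORD121A (155), Ccdc158 (153), Hic1, Panx2 (a pannexin channel gene), Tomm40 (a mitochondrial import channel gene), Arhgap33, Zbtb32 and 4930479M11Rik with 151 each, and Bhlhe40 with 149.

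**Figure D1:**
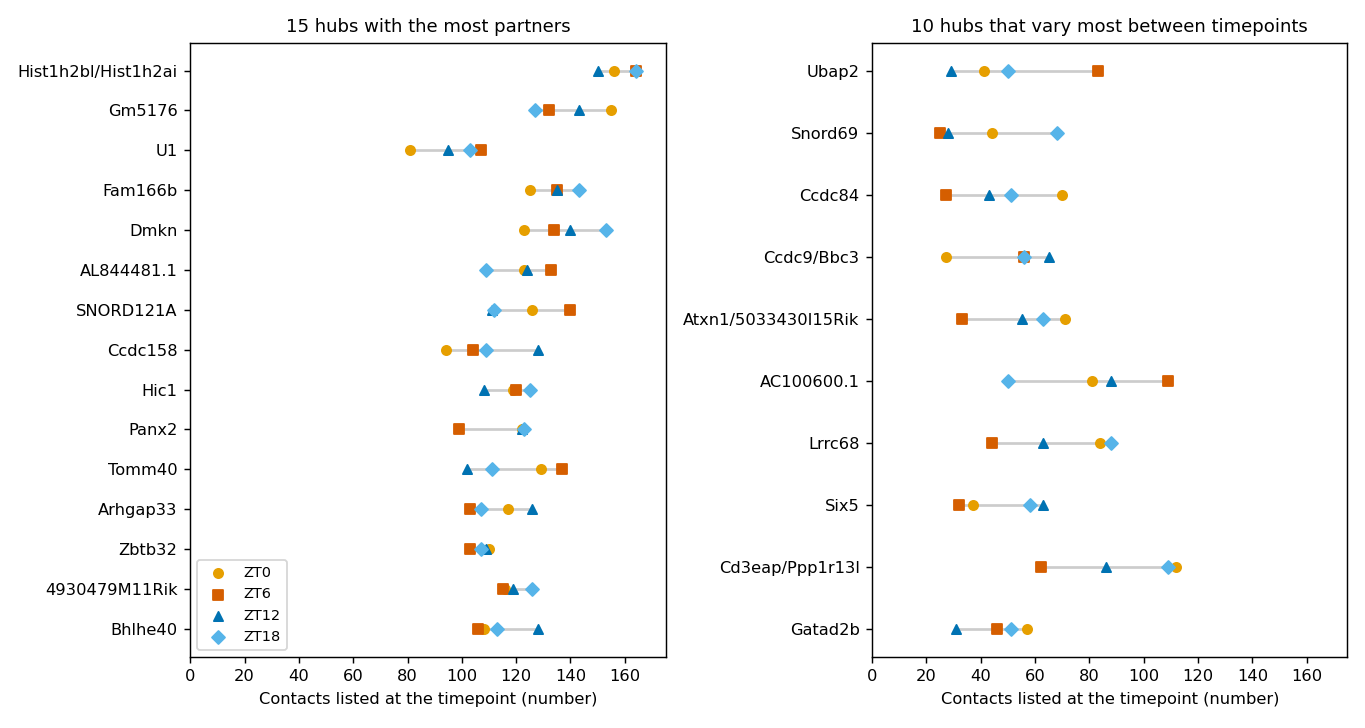
Contacts listed at each timepoint (x axis, number of partner fragments in that list) for the 15 hubs with most partners (left) and the 10 hubs with the largest ratio between timepoints (right); each symbol is 1 merged list and grey lines join the lowest and highest. Hist1h2bl/Hist1h2ai lies between 150 and 164 contacts, while Ubap2 runs from 29 at ZT12 to 83 at ZT6.

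Across all hubs the median number of contacts was 70 (ZT0), 72 (ZT6), 69 (ZT12) and 68 (ZT18). Of the 265 hubs, 55 had at least 80 contacts at every timepoint, while 157 stayed under 80 at each single timepoint and passed 80 only when the lists were joined. Pairs with a hub at either end made up 13.1% of all pairs listed at ZT0 (95% Wilson interval 12.9 to 13.3%). The share was 12.7% for ZT6 (12.5 to 12.8%), 12.8% for ZT12 (12.6 to 12.9%) and 12.7% for ZT18 (12.5 to 12.8%). The ZT0 interval lay just above those of ZT6 and ZT18, and the ZT0 list is also the shortest, with 146262 pairs against 151347 to 154775. When all lists were shortened to equal length by score, the later shares were 12.97, 12.9 and 12.9%, against 13.1% for ZT0, and the separation was largely lost. Each hub's contacts were divided by the total of the list to compare timepoints. By this measure 93 hubs stood highest at ZT0, against 56, 64 and 52 at the later timepoints. The order depended on this division: with the same number of pairs from each list the counts were 79, 76, 60 and 50, and without dividing they were 62, 90, 66 and 47, with most at ZT6.

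The largest of the 4 values of a hub was at least 1.5 times the smallest in 33 hubs (12.5%). Over the 1726 baits with 40 or more partners this was so for 24.3%, and over the 1461 baits with 40 to 79 partners for 26.4%. No test of this difference was run, and the smaller counts of these baits have a larger counting error. Among pairs with a score of at least 10, where each hub has fewer contacts, 115 hubs passed the ratio. The widest range was that of Ubap2, which encodes a ubiquitin-associated protein, with 41 contacts (ZT0), 83 (ZT6), 29 (ZT12) and 50 (ZT18). Snord69, a small nucleolar RNA gene, had 44, 25, 28 and 68 contacts, and was high at ZT18. Ccdc84 had 70, 27, 43 and 51, and Atxn1, the gene of ataxin 1, had 71, 33, 55 and 63, both highest at ZT0 and lowest at ZT6. The fragment of Ccdc9 and Bbc3, the latter a p53 target that promotes apoptosis, went the other way with 27 at ZT0 and 56, 65 and 56 after it. The scores in these hubs were low, with a median over all partners of the highest score of 7.54 for Ubap2, 6.63 for Snord69 and 6.70 for Ccdc84. The median hub had 8.34.

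At the other end, 7 hubs had over 80% of their partners at all 4 timepoints. For 4933423P22Rik the share was 85.5%, for Iah1, which encodes an esterase, 84.7%, and for Gadd45g 83.5%. Irf2bp2 (83.0%), which encodes a partner of the factor IRF2, D18Ertd653e (82.8%), Ptp4a1 (82.7%), a phosphatase gene, and the Mir23b and Mir27b hub (80.7%) followed. Gadd45g had 104 contacts (ZT0), 106 (ZT6), 104 (ZT12) and 107 (ZT18), and Iah1 had 121, 122, 121 and 121, so neither moved by more than 3 contacts. The lowest shares were those of Six5, a homeobox gene, at 11.2%, the sialyltransferase gene St8sia3 at 13.6%, Ano7 at 15.7%, Snord69 at 16.3% and Zfp322a at 17.2%. Across the 265 hubs, Spearman's rho between the median score and the share listed at all 4 timepoints was 0.855, and between the number of partners and that share 0.175. Hubs that lie close together share partners, so these correlations describe the set only.

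Recurrence was then compared at equal score. Of the 27077 bait and partner entries of hubs, 47.7% were listed at all 4 timepoints (47.1 to 48.3%), against 39.5% for baits with 40 to 79 partners (39.1 to 39.8%) and 31.5% for all baits with under 80 partners (31.3 to 31.7%). Hub contacts also had higher scores, with a median highest score of 8.53 (quartiles 6.43 and 12.5) against 7.49 and 6.90. Within bins of score the groups lay closer together, and hubs were not the highest. From a score of 7 to below 10, 40.6% of hub contacts were listed at all 4 (39.5 to 41.6%), against 42.5% for baits with 40 to 79 partners (41.9 to 43.2%) and 39.97% for all baits with under 80 (39.6 to 40.3%). From 10 to below 15 the shares were 84.1% (83.1 to 85.0%), 86.9% (86.4 to 87.5%) and 84.4% (84.0 to 84.8%). From 15 upwards they were 98.5%, 98.7% and 98.2%, and below 6 they were 0.799%, 0.827% and 0.784%. Contacts with a score of 15 or more made up 17.4% of hub contacts, 10.1% of those of baits with 40 to 79 partners and 7.04% of those of all baits with under 80.

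**Figure D2:**
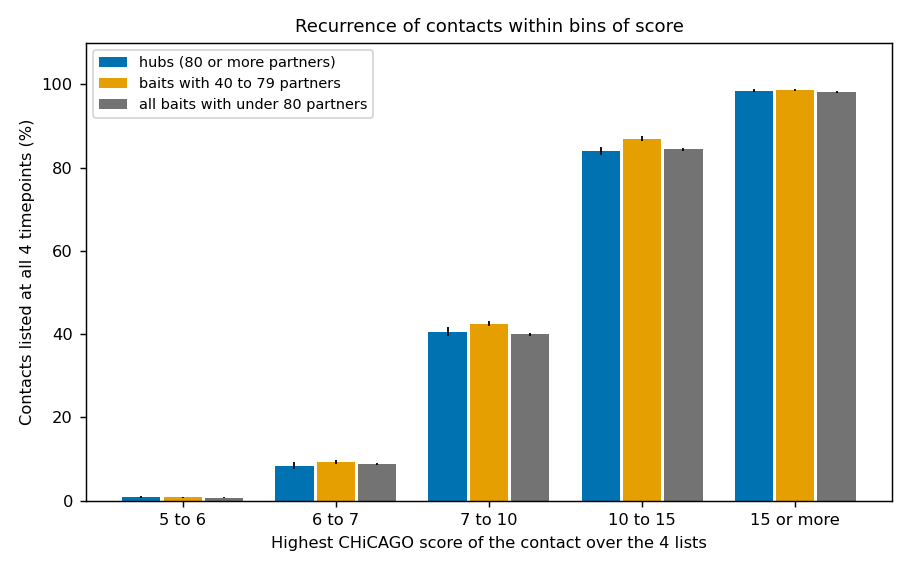
Share of contacts listed at all 4 timepoints (y axis, percent) within bins of the highest CHiCAGO score (x axis) for hubs, baits with 40 to 79 partners and all baits with under 80 partners; bars are shares and lines 95% Wilson intervals. The 3 groups lie within 3 percentage points of each other in every bin, from under 1% below a score of 6 to over 98% from 15 upwards.

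The partners of a hub were mostly neighbours of each other. Of all partners on the chromosome of the hub, 87.9% had a HindIII fragment directly beside them, on either side, among the partners too (87.5 to 88.3%). Per hub the median was 87.7%, against 81.3% for baits with 40 to 79 partners. The choice of hubs by number of partners also raises this share and the lengths of runs, so both describe the hubs only. The partners of the median hub fell into 27 unbroken runs, and the longest run held 20 fragments and spanned 68.2 kb. The longest runs by span belonged to 3 hubs of 1 region of chromosome 7. For Tomm40 the run held 66 fragments over 338 kb, for Clasrp, a splicing factor gene, 49 fragments over 286 kb, and for Ckm, the gene of muscle creatine kinase, 42 fragments over 217 kb. When partners within 10 kb were counted as 1, the median hub had 36 and the highest hub 65, so none reached 80. When another fragment within 10 kb was accepted as the same contact, 82.2% of hub contacts were present at all 4 timepoints (81.7 to 82.7%), against 75.2% for baits with 40 to 79 partners and 61.2% for all baits with under 80. Denser sets of partners offer more neighbours within 10 kb, and the part this plays was not tested. Within 1 Mb, between the hub and its farthest partner on either side, the median hub contacted 46.8% of all fragments, with quartiles of 36.5 and 59.3%. The number of partners that chose the hubs enters this share, so it describes them only.

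The partners of the median hub lay to 73.1% on the fuller side of the bait, against 80.95% for baits with 40 to 79 partners, so hubs were on the median less one-sided. At least 95% of the partners lay on the same side of the bait for 64 hubs (24.2%, 19.4 to 29.7%), and for 29 of these all did. The share was 27.0% for baits with 40 to 79 partners (24.8 to 29.4%), so the intervals overlapped, and 207 of those 1461 baits had all partners on the same side. Under 60% on the fuller side was found for 23.8% of hubs and 16.9% of baits with 40 to 79 partners. All 115 partners of Gadd45g lay downstream of the gene start, and none upstream. Foxo1 had its 129 partners on the side into which Foxo1 is transcribed, and Fosl2, which encodes an AP-1 subunit, had its 116 upstream. Thrb, the gene of thyroid hormone receptor beta, had 98 of 99 downstream, and Dhrs3 122 of 124. Ghr, Elovl5 and Hlf spread to both sides, with 71 and 70, 64 and 63, and 60 and 55 partners. In the 64 one-sided hubs the contacted side held a median of 3 protein-coding gene starts within 500 kb, and the other side 5. The contacted side held fewer in 40 of them, more in 17 and as many in 7. In the 395 one-sided baits with 40 to 79 partners it held fewer in 203 and more in 164. Over the 225 hubs whose genes share a strand, 52.5% of partners were downstream (51.8 to 53.1%), against 53.5% for baits with 40 to 79 partners (53.1 to 53.8%).

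**Figure D3:**
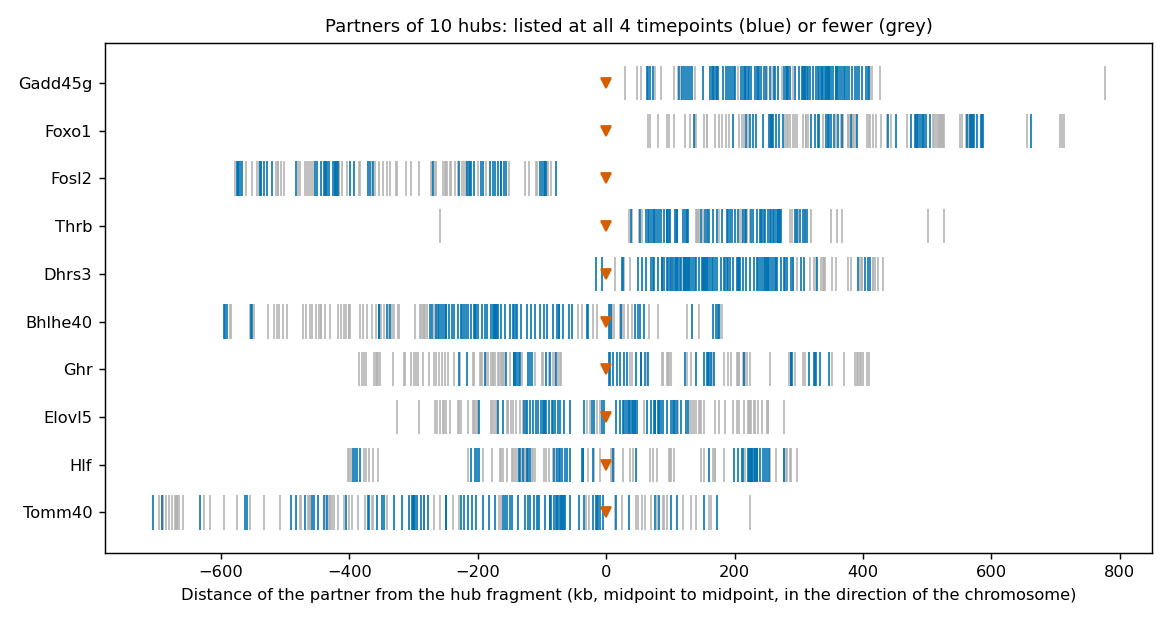
Positions of the partners of 10 hubs (x axis, kb from the hub fragment along the chromosome, triangles mark the hub); each tick is 1 partner fragment, blue where listed at all 4 timepoints and grey otherwise. Gadd45g and Foxo1 contact the right side only and Fosl2 the left side only, while Ghr, Elovl5 and Hlf contact both.

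The distances of hub contacts were then measured. The median midpoint distance within a chromosome was 207 kb (95% interval from order statistics 205 to 209 kb), against 167 kb for baits with 40 to 79 partners (166 to 168 kb) and 158 kb for all baits with under 80 (157 to 159 kb). The share over 500 kb was 9.57% (9.22 to 9.92%), against 6.26% and 8.23%. A single region supplied much of this far tail. Without 13 hubs of the histone gene region on chromosome 13 the median was 204 kb, the share over 500 kb 6.91% (6.60 to 7.23%) and the share over 1 Mb 0.311%, against 3.27% with them. That share over 500 kb lay below the 8.23% of all baits with under 80, but above the 6.26% of baits with 40 to 79 partners (6.09 to 6.43%). The share over 1 Mb lay below the 1.12% of baits with 40 to 79 partners and the 1.42% of all baits with under 80. The histone gene region was left out of the hubs only. The compared groups kept their own baits of that region, so these comparisons are not like with like. Of the 856 hub pairs over 1 Mb, 776 (90.7%) involved these 13 hubs. By timepoint the median distance of hub contacts was 193 kb (ZT0), 195 kb (ZT6), 189 kb (ZT12) and 190 kb (ZT18). The shortest median distances of single hubs belonged to S100a14 (61.9 kb), Chd8 (71.6 kb) and Vps13d (84.8 kb), and the longest to the fragment of Hist1h1b and Hist1h3i (1809 kb), that of Hist1h2bl and Hist1h2ai (1734 kb) and that of Hist1h2ac and Hist1h2bc (1633 kb). All 8 hubs with a median over 1000 kb were in the histone group, and the next was Gm15418, a processed transcript, with 614 kb.

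**Figure D4:**
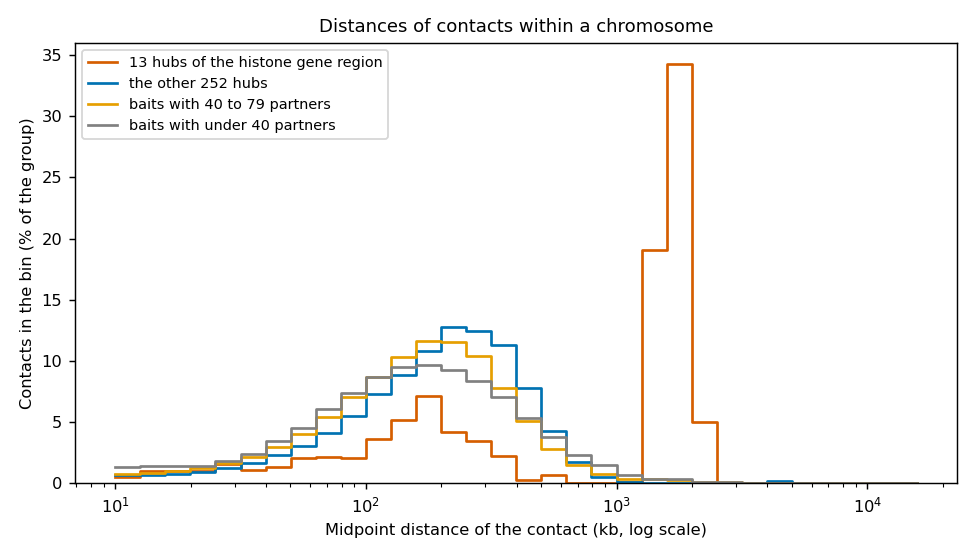
Distribution of midpoint distances of contacts within a chromosome (x axis, kb on a log scale) as a share of each group's contacts (y axis, percent) for the 13 hubs of the histone gene region, the other 252 hubs, baits with 40 to 79 partners and baits with under 40. The histone hubs have a separate peak above 1000 kb. The other hubs peak at longer distances than the baits with fewer partners, but a smaller share of their contacts lies above 1000 kb. The groups with fewer partners keep their own baits of the histone gene region.

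The replication-dependent histone genes, which supply histones for newly made chromatin, lie in clusters. On chromosome 13 the Hist1 genes fall into a block of 24 gene starts over 328 kb (chr13:21807632-22135545) and another of 31 over 404 kb (chr13:23622919-24026720). Of 36 bait fragments with a histone gene start anywhere in the genome, 11 were hubs (30.6%, 18.0 to 46.9%), against 1.46% of all baits. All 11 lay in these blocks, and together with Zfp322a, a zinc finger gene, and Abt1, a transcription activator gene, which lie beside the second block, they formed the largest group of hubs joined by listed contacts. In this group 72 of 78 possible pairs of hubs were listed, 60 of them at all 4 timepoints. The group had 1021 contacts (ZT0), 1035 (ZT6), 945 (ZT12) and 976 (ZT18), counted over its hubs.

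The histone hubs contacted the other block across more than 1 Mb. The Hist1h2bl and Hist1h2ai hub in the first block had 88 partners in the second, of which 76, 83, 72 and 79 were listed from ZT0 to ZT18, and 67 at all 4. Their median highest score was 19.8, the highest of the 13 hubs, for which it ran from 8.21 (Zfp322a) to 15.2 (Hist1h2ae) in the others. Hist1h1b and Hist1h3i had 63 of 84 partners in the second block, and Hist1h4i and Hist1h2ag 59 of 101. Seen from the second block, Hist1h4h, Hist1h2af and Hist1h3g had 74 of 136 partners in the first, Hist1h2ae 53 of 125 and Hist1h4c 27 of 80. The strongest contact of Hist1h2ae was with the fragment of Hist1h4i and Hist1h2ag, at 1527 kb, with scores of 64.8 (ZT0), 86.5 (ZT6), 75.9 (ZT12) and 79.1 (ZT18). Abt1 had 72 of its 108 partners in the first block and Zfp322a 59 of 87, although neither is a histone gene.

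In all, 722 fragment pairs joined the blocks, 552 of them with a hub at 1 or both ends, and 144 had a histone gene start at both ends. There were 492 such pairs in the ZT0 list, then 514, 437 and 490 in the later ones, and 277 (38.4%, 34.9 to 42.0%) were listed at all 4. Fragments that carry no histone gene start were thus partners as well, and of the partners of the 13 hubs between 13.4% (Hist1h2bl and Hist1h2ai) and 32.9% (Gm17658 and Hist1h4d) lay on fragments with such a start. The 6 partners that all 13 hubs shared included the fragments of Hist1h2ak and Hist1h2bn, Hist1h2ah and Hist1h2bk, Hist1h2bh and Hist1h3f, and Hist1h2ab. Histone genes are near-identical copies, so reads within them can be hard to place, and the part of this in the contacts was not tested.

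**Figure D5:**
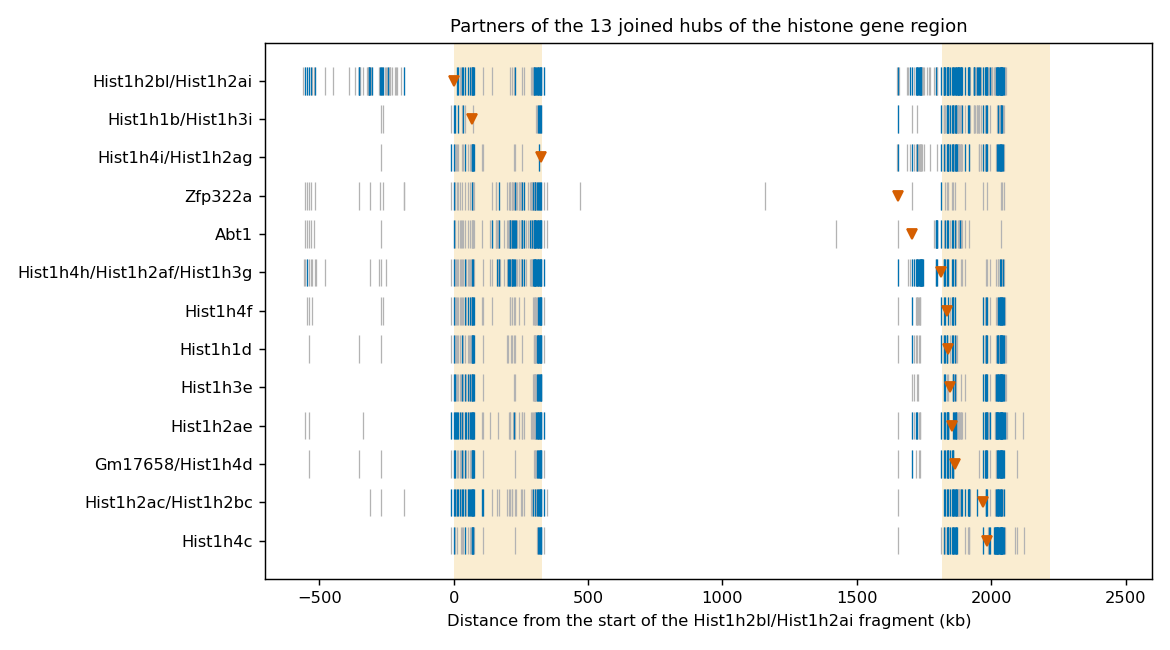
Partners of the 13 joined hubs of the histone gene region (x axis, kb from the start of the Hist1h2bl/Hist1h2ai fragment; rows in order along chromosome 13); triangles mark the hub, ticks its partners, blue where listed at all 4 timepoints and grey otherwise, and shading the blocks of Hist1 genes. Ticks gather in both blocks for every hub, with fewer partners between them than in either block.

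Only 3 hub contacts joined different chromosomes, each at a single timepoint. This was 0.0111% of hub contacts, against 0.183% for baits with 40 to 79 partners and 0.0903% for all baits with under 80. Hist1h2ae was paired with the fragment of Hist2h2aa2 on chromosome 3 at ZT0, with a score of 17.3. Hist1h2ac and Hist1h2bc were paired with the neighbouring fragment of Hist2h2aa1 and Hist2h3c1 at ZT6, with a score of 5.37. Leng9 was paired with a fragment within Sfi1 on chromosome 11 at ZT12, with a score of 6.02. The first 2 therefore joined histone genes to histone genes of another cluster, and the limit on near-identical copies holds for them too.

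Hubs were themselves partners of hubs. Of the 265 hubs, 127 contacted at least 1 other hub, and these fell into 33 groups with 278 listed pairs between hubs, 212 of them present at all 4 timepoints. The choice of hubs by number of partners also raises this count. A hub made up 2.05% of the partners of hubs, against 1.20% for baits with 40 to 79 partners and 1.11% for all baits with under 80. The second group held 11 hubs over 626 kb of chromosome 7 (chr7:19676414-20301954), among them Tomm40, Clasrp, Relb (an NF-kappaB subunit gene), Ercc1 (a DNA repair nuclease gene), Ckm and Six5. Of 55 possible pairs in it 50 were listed. Its contacts over all members numbered 934 (ZT0), 808 (ZT6), 916 (ZT12) and 928 (ZT18), so the total was lowest at ZT6. The values of several members were lowest at ZT6. The fragment of Cd3eap and Ppp1r13l had 112, 62, 86 and 109 contacts, and Lrrc68 had 84, 44, 63 and 88. Tomm40, in contrast, was highest at ZT6 with 129, 137, 102 and 111, and Six5 was higher at ZT12 and ZT18 with 37, 32, 63 and 58.

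The third group held 9 hubs over 526 kb of chromosome 7 (chr7:31318511-31844113), with all 36 possible pairs listed. It included Dmkn, Sbsn, Arhgap33, Zbtb32, the lipolysis-stimulated receptor gene Lsr, Usf2, which encodes an E-box binding factor, the fatty acid receptor gene Ffar3, and Fxyd7 with Fxyd1, which regulate the sodium pump. Of the partners of this group, 89.1% were partners of 2 or more of its hubs. Further groups held 6 hubs each around Panx2 and the MAP kinase genes Mapk12 and Mapk11 on chromosome 15, Gapdh and Usp5 on chromosome 6, Chd8 and Hnrnpc on chromosome 14, and Nrarp and Noxa1 on chromosome 2. In the Panx2 group 14 of 15 possible pairs were listed, all 14 at every timepoint. In the Gapdh group all 15 were listed, and 7 at every timepoint.

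Hubs that lie next to each other had nearly the same partners. There were 30 pairs of hubs within 20 kb, in which a median of 88.3% of the partners of the smaller hub were partners of the larger (lowest 81.1%, highest 98.8%). Phlda1, a stress-response gene, shared 108 of its 111 partners with Gm5176, which is 62.4% of the 173 partners of Gm5176. Sbsn shared 83 of 84 with Dmkn, which is 50.3% of those of Dmkn. Counting hubs within 20 kb once left 238. Hubs are therefore not independent samples of promoters, and shares over hubs should be read with this in mind.

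Most partners were not promoters. A bait made up 12.7% of hub partners (12.3 to 13.1%), against 17.4% for baits with 40 to 79 partners (17.2 to 17.7%) and 28.2% for all baits with under 80 (28.0 to 28.3%). Hubs without a bait partner numbered 11, Gadd45g and Thrb among them, while Zbtb32 had 42 bait partners of 151 and Dmkn 45 of 165. Where a bait lay within the span of the contacts of a hub, within 1 Mb, it was a partner in 72.6% of cases (71.3 to 73.9%), a share that the choice of hubs by number of partners also raises. Of the hub partners that were not baits, 60.3% overlapped a protein-coding gene (59.7 to 60.9%), against 60.8% for all baits with under 80 (60.6 to 61.0%) and 63.3% for baits with 40 to 79 partners (62.9 to 63.6%).

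The strongest contact of each hub was taken by its highest score. It was present at all 4 timepoints for 264 of 265 hubs, was a bait for 88 and lay at a median distance of 184 kb. The highest of all belonged to 9930013L23Rik, at 184 kb within the gene Arnt2, with scores of 129 (ZT0), 131 (ZT6), 161 (ZT12) and 154 (ZT18). For Gadd45g it lay at 375 kb, outside any protein-coding gene, at chr13:52316037-52318128, with 108, 35.0, 101 and 128. For Rhob, a small GTPase gene of early response, it lay at 166 kb within Hs1bp3 with 102, 35.6, 101 and 128. Both contacts were thus lowest at ZT6. For Bhlhe40 it lay at 203 kb within Itpr1 at chr6:108406819-108407382, with 35.6, 55.6, 108 and 66.9, and was highest at ZT12. Over all hubs the strongest contact had its lowest score at ZT0 for 69 hubs, at ZT6 for 76, at ZT12 for 58 and at ZT18 for 62.

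Lists of genes with a role in liver were read against the 1.46% of all baits that were hubs. Of 62 bait fragments with a gene of the list of liver transcription factors, 3 were hubs (4.84%, 1.66 to 13.3%), a share whose interval lay just above 1.46% with 3 fragments behind it, namely Usf2 (137), Foxo1 (129) and Thrb (99). Foxo1 had 72 contacts (ZT0), 96 (ZT6), 112 (ZT12) and 88 (ZT18), with the highest at ZT12. Thrb had 85, 83, 83 and 78, and its strongest contact lay 240 kb away inside Thrb itself. Of 76 baits of the lipid, sterol and bile acid list, 3 were hubs (3.95%, 1.35 to 10.97%, which holds 1.46%): Elovl5, a fatty acid elongase gene, with 86, 106, 80 and 86 contacts, Dhrs3 with 113, 112, 111 and 110, and Lipa, the lysosomal acid lipase gene, with 66, 75, 59 and 62. Elovl5 was thus highest at ZT6, and Dhrs3 differed by at most 3 contacts.

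Further metabolic lists each had a single hub, or 1.32% to 2.08% of their baits, close to 1.46%. Among secreted hepatocyte proteins it was Ttr, the thyroxine carrier transthyretin, with 50 contacts (ZT0), 63 (ZT6), 57 (ZT12) and 57 (ZT18). Among urea, heme and amino acid genes it was Slc25a15, the mitochondrial ornithine carrier, with 57, 72, 68 and 84. Among xenobiotic genes it was the carboxylesterase gene Ces1d with 77, 87, 82 and 76, and its strongest contact was the neighbouring Ces1e at 36.2 kb. Among glucose genes it was Gapdh, a glycolysis gene, with 65, 61, 71 and 64. Of growth and signalling genes Ghr had 76, 105, 114 and 90 contacts, lowest at ZT0.

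Of 61 baits with an immediate early or stress gene, 3 were hubs (4.92%, 1.69 to 13.5%), against 1.46% of all baits, namely Fosl2 (116), Gadd45g (115) and Jun (101). Jun had 42 contacts (ZT0), 74 (ZT6), 58 (ZT12) and 55 (ZT18), and 20.8% of its partners were present at all 4 timepoints, against 83.5% for Gadd45g and 47.4% for Fosl2. These 3 genes of 1 list thus had very different recurrence. None of 585 baits with an olfactory receptor gene was a hub, which allows a share of up to 0.513%, nor of 73 with a ribosomal protein gene (up to 4.11%), 83 with another developmental transcription factor gene (up to 3.61%) or 35 with a Hox gene (up to 8.57%). Of these limits that for olfactory receptor genes alone lay below 1.46%, so the other lists were too short to differ from all baits at a count of 0. Of the marker lists of liver cell types, the hepatocyte list had 1 hub among 11 baits, Ttr, and the lists of Kupffer, endothelial, stellate, bile duct and blood cells had none among 7, 10, 8, 5 and 14 baits, which allows shares of up to 21.4 to 60% in the single lists.

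Circadian genes were taken from the study's own list. It holds genes whose RNA in liver differed between at least 1 pair of timepoints, a rule that fits no rhythm. RNA was not measured in these libraries. Such genes were found on 15 hubs (5.66%, 3.46 to 9.13%), against 6.16% of all baits and 9.17% of baits with 40 to 79 partners (7.80 to 10.8%). A hub with such a gene can be asked whether its contacts, divided by the list total, were most numerous at the acrophase, the timepoint of the highest RNA. This was so in 5 of 16 combinations of hub and acrophase (31.3%, 14.2 to 55.6%), against 29.1% of the 151 combinations on baits with 40 or more partners, which lies within that interval. Without division by the list total it was so in 4 combinations. Under the alternative order of the timepoints it was so in 1. Bhlhe40 (acrophase ZT12) had 108 contacts (ZT0), 106 (ZT6), 128 (ZT12) and 113 (ZT18). Of 25 bait fragments with a gene of the clock and clock output list, 2 were hubs (8.0%, 2.22 to 24.97%), Bhlhe40 and Hlf. The 1.46% of all baits lay just below this interval, which has 2 fragments behind it. Hlf, a PAR bZIP factor gene, had 68, 85, 95 and 79 contacts, also highest at ZT12. Slc4a4 (acrophase ZT6), a bicarbonate cotransporter gene, had 105, 103, 82 and 103 contacts and was lowest at ZT12. Dhrs3 and Hist1h2bc (both ZT0) and Ptp4a1 (ZT12) had ranges of no more than 6 contacts between timepoints. The fragment of Alg12 (ZT0) and Creld2 (ZT18), genes of glycan assembly and of the endoplasmic reticulum, had 91, 90, 113 and 121, with the most at the acrophase of Creld2.

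The bait fragments of hubs were compared by features that did not enter the rule. Their median length was 4957 bp (quartiles 3065 and 8076), against 5567 bp for baits with 40 to 79 partners and 5873 bp for all baits with under 80, and rho between length and number of partners across hubs was -0.0481. The median share of G and C was 49.1%, against 48.7% and 47.2%. The CpG content over that expected from base composition was 0.350, against 0.338 and 0.292. Within 500 kb on either side hubs had a median of 15 protein-coding gene starts, with quartiles of 8 and 37, against 17 (10 and 32) and 15 (9 and 27), so the quartiles of hubs lay farther apart than those of the baits with 40 to 79 partners. Of the 265 fragments, 229 held the start of a protein-coding gene (86.4%, 81.8 to 90.0%), and the other 36 held small nucleolar RNA genes (11), processed transcripts (11), small nuclear RNA genes (7) or miRNA genes (7) only. Chromosomes 13 and 7 had 28 hubs each. Of the baits of chromosome 13, 4.14% were hubs, followed by chromosomes 14 (3.04%, 20 hubs), 12 (1.97%) and 7 (1.87%).

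The rule has a threshold at 80 partners. Of the hubs, 14 had exactly 80, among them Thbs1, Gatad2b, Hist1h4c, Leng9 and Snord69, and 15 baits had 79, among them Tcf7l2, Acox2, Iyd, Prmt5 and Cox6b1. Tcf7l2, which encodes a Wnt pathway factor, had 53, 54, 58 and 46 contacts, and Acox2, which encodes a bile acid oxidase, 60, 63, 53 and 61. Thbs1, on the other side of the line, had 47, 54, 41 and 44, so members and non-members near it had similar levels at each timepoint.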

How the data were processed

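The authors used HiCUP to map and filter the reads on build mm9, joined the 3 pools of each timepoint, and scored contacts with CHiCAGO; versions are not given in the sources used here. Each deposited score belongs to 1 pair of fragments in 1 list, and listed scores are at least 5. A pair just below 5 is absent from a list, so absence is no measurement of few reads. Read depth was not analysed here, and no column was left out. Timepoints follow the sample labels; a summary given with the study places 3 of the list totals under other timepoints, which was run as an alternative.

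Pairs were treated as unordered, and partners were counted from both ends over the union of the lists (python 3.11.15, pandas 2.3.3, numpy 2.4.6). Of the 129887 listed fragments, 129886 matched HindIII fragments of mm9. Gene starts came from the GENCODE annotation of that build, groups of hubs from networkx 3.6.1, intervals from scipy 1.17.1 and figures from matplotlib. The circadian genes, with their acrophases, are those the study lists. The functions were tested on simulated lists with planted hubs. Genes named are those on the 15 hubs with most partners, on up to 30 hubs with a gene of the lists or a circadian gene, nearest the threshold, at the extremes of recurrence, range over timepoints and distance, in the 3 largest groups, or with a partner on another chromosome. Others (Rhob, 9930013L23Rik, Phlda1, Gm15418, the 6-member groups, and the hubs named for motifs, sides or runs) were named after their values were seen. The members and lists were chosen with earlier results of these data known. Alternatives are given at the end.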

Additional observations from a re-analysis of the deposited data

How the results depend on the processing

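No paired analysis was possible because each list joins its 3 pools. Single pools could not be left out either. The number of hubs, 265, depends on how partners are counted: it was 63 at a score of at least 7, 15 at a score of at least 10, 100 with partners listed at 2 or more timepoints, 427 with 70 or more partners and 110 with 100 or more, and 0 when partners within 10 kb were counted as 1. It was 247 with the same number of pairs from each list, 194 with partners from column 2 only and 264 with partners on the same chromosome only. With the 265 hubs kept, the share listed at all 4 timepoints was 44.4% at a score of at least 7, 41.4% at 10 or more in every list and 82.2% with another end within 10 kb accepted, and stayed between 47.1 and 48.1% when each of 20 chromosomes was left out. The median distance of 207 kb was 202 kb as the gap between fragments, 186 kb at a score of at least 10, 193 kb as the median of each hub's median and 204 kb without the histone group, where the share over 500 kb was 6.91% (chosen after seeing the data). The promoter share of 12.7% was 13.9% for fragments with a gene start and 15.9% at a score of at least 10. Hubs held 21.3, 20.7, 20.3 and 20.5% of the ZT0, ZT6, ZT12 and ZT18 lists at a score of at least 10, and 12.97, 12.9 and 12.9% of the last 3 with the same number of pairs from each list. Partners with a neighbour made up 97.1% with a gap of at most 10 kb. Circadian starts at the intron level lay on 1.13% of hubs, against 1.40% of all baits. Hubs with a 1.5-fold range between timepoints numbered 115 in place of 33 at a score of at least 10, where each hub has fewer contacts, and 37 with the same number of pairs (chosen after seeing the data). One-sided hubs numbered 90 in place of 64 at a score of at least 10. With the other timepoint order the ZT6, ZT12 and ZT18 lists would be ZT18, ZT6 and ZT12, so every statement on one of these timepoints changes its name, among them the ZT12 high of Bhlhe40 and the ZT6 low of Gadd45g and Rhob, and the acrophase was matched in 1 of 16 combinations in place of 5 (chosen after seeing the data). The causes of these shifts were not tested.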
